A study of Mus musculus with 15 samples.

Results

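Broad domains of H3K27Ac that were present in the islets of mice on every diet were described here. H3K27Ac is the acetylated form of lysine 27 of histone H3. The peaks of 3 lists, 1 for each diet, were joined on chromosomes 1 to 19 wherever they shared 1 bp or more, and a domain was kept when it held a peak in each list and its joined length was at least 3000 bp. This gave 1263 domains out of 12950 H3K27Ac regions shared by the diets and 25452 joined regions in all. The domains were therefore chosen by the measured position and length of their H3K27Ac peaks, so lengths and heights of H3K27Ac are given below as a description, with no test. The remaining 11687 shared regions were shorter than 3000 bp and serve for comparison.

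The islets came from male CBA mice that ate a regular diet (RD), a high-fat diet (HFD) or a high-fat diet formulated with O304 (HFD-O304), which the study describes as an activator of the energy sensor AMPK. The mice were adults, had no engineered allele named in the labels, and were kept on the diets for several weeks, so RD islets are the control and O304 was given only together with the high-fat diet. Islets were picked by hand and pooled, with about 600 islets for a chromatin immunoprecipitation, and hold several endocrine and other cell types. The 2 replicates of a diet were merged before peak calling, so each diet is represented by 1 list and differences between diets have no replicate error.

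H3K27Ac is deposited by the acetyltransferases p300 and CBP at active promoters and enhancers. Most of its regions are short and sit at a start site or an enhancer, whereas long uninterrupted stretches are known from genes that define a cell type, where several enhancers lie close together and are bound by the transcription factors of that cell. Trimethylation of the same lysine (H3K27Me3) is laid down by Polycomb and goes with repression, and a single histone tail cannot carry both modifications at this residue. In the beta cell, factors such as PDX1, NKX2-2, NKX6-1 and PAX6 maintain identity, and the products of Abcc8, Kcnj11 and Slc2a2 couple glucose to insulin release.

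The longest domains at genes of the beta cell transcription factor list with a RefSeq start site inside were those of Pax6, Nkx2-2, Pdx1 and Myt1. Up to 250 bases before a RefSeq start site in each of these domains are shown because they lie within domains that reach far beyond the bases shown. They stop at the first annotated exon, which leaves 197 bases at Nkx2-2, where longer transcripts start further upstream, and 112 at Pdx1. A second Pax6 start site lay within an exon of another transcript and is not shown. They are written 5′ to 3′ along the gene (RefSeq, GRCm38.p6), with matches to 11 short motifs in capitals.
Pax6 (chr2:105668646-105668895, plus strand): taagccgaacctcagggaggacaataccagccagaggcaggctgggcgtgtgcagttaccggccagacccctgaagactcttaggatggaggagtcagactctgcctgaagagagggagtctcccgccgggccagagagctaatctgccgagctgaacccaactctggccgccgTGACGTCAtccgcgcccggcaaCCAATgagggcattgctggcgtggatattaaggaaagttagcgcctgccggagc
Nkx2-2 (chr2:147186456-147186652, minus strand): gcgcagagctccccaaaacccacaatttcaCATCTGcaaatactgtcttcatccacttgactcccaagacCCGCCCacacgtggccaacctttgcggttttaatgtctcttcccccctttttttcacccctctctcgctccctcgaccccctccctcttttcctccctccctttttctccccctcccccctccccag
Pdx1 (chr5:147269847-147269958, plus strand): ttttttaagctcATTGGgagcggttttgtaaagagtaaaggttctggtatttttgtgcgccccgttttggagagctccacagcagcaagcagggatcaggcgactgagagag
Myt1 (chr2:181763082-181763331, plus strand): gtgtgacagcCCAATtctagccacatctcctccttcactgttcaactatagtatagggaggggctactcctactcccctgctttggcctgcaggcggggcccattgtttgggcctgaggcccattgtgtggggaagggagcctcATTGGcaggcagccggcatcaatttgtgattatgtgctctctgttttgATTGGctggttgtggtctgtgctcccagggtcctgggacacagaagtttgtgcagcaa
The capitals mark a cAMP response element (TGACGTCA) and a CCAAT box at Pax6, an E-box of the kind bound by NEUROD1 (CAGATG, here on the other strand) and a GC box (GGGCGG, on the other strand) at Nkx2-2, 1 CCAAT box at Pdx1 and 3 at Myt1, some of them on the other strand. The domain ran 2577 bp before and 15077 bp past the Pax6 start site shown. It ran 5225 bp before and 2405 bp past that of Nkx2-2, and 1845 bp before and 5161 bp past that of Pdx1. At Myt1 the domain lay mostly before the start site, with 5079 bp before and 645 bp past it.

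The label of the tissue was checked with marker genes. Of 15 islet endocrine markers 10 had a shared H3K27Ac region within 1000 bp of a start site, and 8 had a broad domain, namely Chga, Pdx1, Nkx6-1, Neurod1, Isl1, Nkx2-2, Slc2a2 and Pcsk2. The hormone genes Ins1, Gcg, Sst, Ppy and Iapp had no region shared by the diets at a start site, and Ins2 had one under 3000 bp. None of 6 macrophage, 6 endothelial or 5 fibroblast markers had a shared region, and 1 of 7 acinar markers (Bhlha15) did, with no broad domain. The lists rested on 83773042 kept fragments for RD, 95218072 for HFD and 84694188 for HFD-O304, and the lowest fold enrichment that was called was 2.28, 2.17 and 2.25.

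The joined length of the domains had a median of 3955 bp, with quartiles of 3382 and 5313 bp and a maximum of 124474 bp. The shared regions under 3000 bp had a median of 1257 bp. Together the domains took up 7.30 Mb, against 15.7 Mb for all shorter shared regions. A domain could pass the length limit without a long peak in every diet. A single peak of at least 3000 bp was found at 427 domains on RD, 880 on HFD and 761 on HFD-O304. All 3 lists had one at 312 domains, and no list had one at 128, which passed only because peaks of different diets extended each other. In each diet 1 peak made up most domains, with 81.4% of them on RD, 88.0% on HFD and 83.8% on HFD-O304.

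The limit of 3000 bp cut through a continuous range. The shortest domains were 3000 bp at Mepce/Zcwpw1, 3001 bp near Cxxc5 and 3002 bp near Zc3h10. The longest shared regions left out included 2997 bp at Arap1 and 2995 bp at Klhl28/Togaram1.

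The median fold enrichment over a domain, as deposited, was 2.79 on RD, 2.84 on HFD and 2.86 on HFD-O304. In the shorter shared regions the medians were 2.89, 3.05 and 3.06 in the same order. The broad domains as a whole were thus slightly lower than the shorter regions, but the 32 domains of 20000 bp or more were higher, with medians of 3.61, 3.83 and 3.73.

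H3K27Me3, measured with a second antibody and not used to choose the domains, separated them into unlike groups. At least 1 bp of H3K27Me3 of any diet was found in 26.5% of the domains (Wilson 95% interval 24.2 to 29.0), against 16.1% (15.4 to 16.8) of the shorter shared regions. These intervals cover counting error only and take regions as independent. Longer regions meet more peaks, so the share of bases was compared as well. Of the bases of the domains 35.3% lay under H3K27Me3 on RD, 32.8% on HFD and 34.4% on HFD-O304. In the shorter shared regions the shares were 8.34%, 8.26% and 8.13%.

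Most domains had no H3K27Me3, and the cover of the others ranged widely. No base was under H3K27Me3 in any diet at 928 domains (73.5%), here called domains with H3K27Ac alone. At 212 domains (16.8%) at least 50% of the bases were under H3K27Me3 in every diet, and 91 of these were covered to at least 90%. The remaining 123 were covered in part. The share of domains with H3K27Ac alone was lower among longer domains. It was 82.0% of 651 domains of 3000 to 3999 bp, 63.6% of 283 domains of 5000 to 9999 bp, 28.3% of 53 domains of 10000 to 19999 bp and 0 of 32 domains of 20000 bp or more, of which 29 were at least 50% under H3K27Me3. Both antibodies thus had peaks over most of the longest domains. No input was subtracted in the calling, and the reason for the overlap was not tested.

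**Figure D1:**
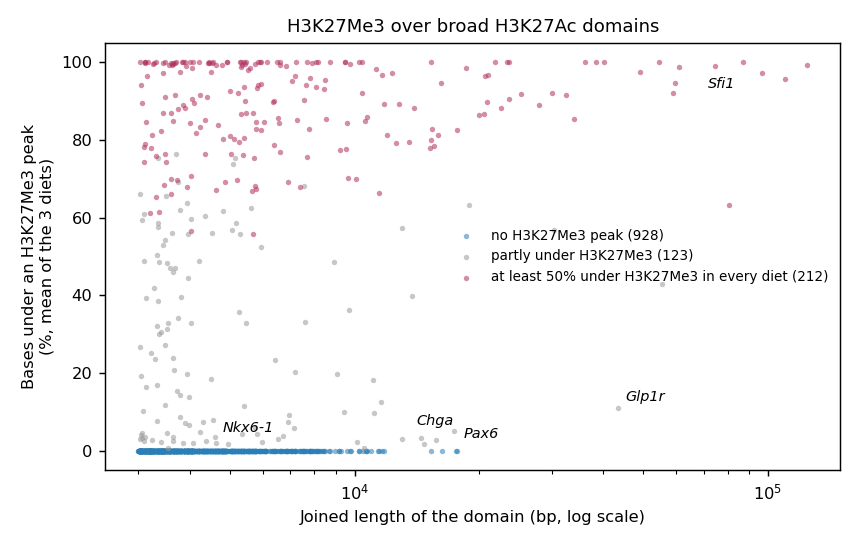
Each point is 1 of the 1263 domains, with its joined length in bp on a log scale against the percentage of its bases under an H3K27Me3 peak, averaged over the 3 diets. The 928 blue points lie at 0 and end at 17655 bp (Pax6), and all domains of 20000 bp or more have some H3K27Me3.

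The groups differed in place and sequence. Among the 928 domains with H3K27Ac alone 601 (64.8%, 61.6 to 67.8) were at a promoter, with a protein-coding transcript starting within 1000 bp, 205 were in a gene body and 122 between genes. Of the 212 domains with both marks 40 (18.9%, 14.2 to 24.7) were at a promoter and 152 (71.7%) between genes. Repeat-masked bases had a median of 11.6% with H3K27Ac alone and 39.3% with both marks. GC content was 54.4% and 44.2%. At least 50% of the bases were repeats in 3 of the 928 domains and in 75 of the 212.

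All but 1 of the 12 longest domains had both marks over at least 50% of their bases in every diet. The longest, 124474 bp at chr8:20318258-20442731 around the predicted gene Gm15319, had 123627 bases under H3K27Ac on RD, 124439 on HFD and 124425 on HFD-O304. H3K27Me3 covered 98.5%, 100.0% and 99.3% of it, and in HFD a single H3K27Me3 peak of 124501 bp spanned it. Its extent was nearly the same with either antibody and in every diet. Domains of 110327 bp near Gm31371, 97006 bp at Gm21119 and 60835 bp near Gm21119 were its neighbours. The other long ones included 86896 bp near Gas8, of which 79.9% was repeat sequence, 80572 bp at Dynlt1b and 55582 bp at Dynlt1c, which encode light chains of the dynein motor, and 74589 bp at Sfi1, which encodes a centrosomal protein. The Dynlt1c domain was the exception, with 63.0% of its bases under H3K27Me3 in RD and 34.1% in HFD.

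The highest signals of H3K27Ac were of this kind too. The fold enrichment of a domain of 5111 bp at chr2:98662228-98667338 was 1431 on RD, 1331 on HFD and 1450 on HFD-O304, and that of H3K27Me3 over the same domain was 1391, 1755 and 1699. Domains at chr14:19415698-19419704 (fold 633 in RD), chr9:2999996-3038403 (fold 414) and chr17:39842992-39848833 (fold 133) followed, with H3K27Me3 folds in RD of 852, 616 and 230. A peak with a fold of at least 10 in every diet was found at 12 domains, and none of them had H3K27Ac alone. The 4 domains with the lowest pileup, near Dusp1, Kif12, Zfp516 and Insm1, lay in gene bodies and had folds between 2.22 and 2.41 in each diet.

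Domains lay in groups in some places. Counting groups of at least 5 domains with gaps of at most 100 kb, the largest held 28 domains over 475 kb of chromosome 17 (chr17:30448167-30923559) across Btbd9, Glo1, Dnah8 and Glp1r. The second held 24 domains over 477 kb of the same chromosome (chr17:6224704-6701466) with Dynlt1a, Dynlt1b, Dynlt1c and Tmem181a. The H3K27Ac folds within the first group had medians of 2.53 on RD, 2.52 on HFD and 2.63 on HFD-O304, and 22 of its domains were partly under H3K27Me3. It includes a domain of 43375 bp over the start of Glp1r, the receptor for the incretin GLP-1 (chr17:30880185-30923559). That domain had 38822 bases under H3K27Ac on RD, 42340 on HFD and 40272 on HFD-O304, and 20.1%, 5.91% and 6.81% of its bases were under H3K27Me3. The Glp1r domain is thus 1 of a run of domains over neighbouring genes. No input was subtracted in the calling, and the reason for this run was not tested. On chromosome 17, 16.3% of the shared regions were broad, beside 5.81% on chromosome 9 and 13.5% on chromosome 8, which were the lowest and the next highest shares.

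Groups of domains with H3K27Ac alone were of another kind. The Abcc8 and Kcnj11 locus held 6 domains within 143 kb (chr7:46095568-46238858). The groups at the Gse1 and Cxxc5 loci held 6 each, and those at the Syt7, Dnmt3a and Btg2 loci 5 each. Abcc8 and Kcnj11 encode SUR1 and Kir6.2, the subunits of the ATP-sensitive potassium channel that closes when glucose is metabolised. Abcc8 was overlapped by 4 domains, which took up 43.5% of the gene. No domain of the locus met H3K27Me3.

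The longest domain with H3K27Ac alone was at Pax6. The Pax6 domain (chr2:105666319-105683973, 17655 bp) included the gene's start and had 14842 bases under peaks on RD, 14424 on HFD and 17606 on HFD-O304. PAX6 is a paired-box factor needed by all islet endocrine cells. The second, of 17627 bp (chr15:75774438-75792064), lay in the body of Zc3h3, 26.2 kb from the start site of Mafa, the nearest gene start and a regulator of insulin transcription. Peaks covered 6315 of its bases on RD, 10100 on HFD and 14325 on HFD-O304. Mafa itself had only a shorter shared region at its start site.

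The third, of 16252 bp, spanned the start sites of Dbp, Sphk2, Car11 and Rpl18 on chromosome 7. Dbp encodes a transcription factor driven by the circadian clock. Covered bases were 13490, 15747 and 16097 in RD, HFD and HFD-O304. The fourth, of 15317 bp (chr12:102549832-102565148), contained the whole of Chga, which encodes the granule protein chromogranin A. It had 5819 covered bases on RD, 13631 on HFD and 10622 on HFD-O304. Chga was the longest of 36 protein-coding genes that lay wholly inside a domain with H3K27Ac alone, and these genes had a median length of 2174 bp. Sphk2, Dbp, Irf2bp2, Atf4, Ddit4 and Cebpb were among them.

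A domain of 11776 bp in Btbd9, a gene of the run on chromosome 17, and 2 in Abcc8, of 10946 and 10471 bp, were of this length as well. Further domains of over 10000 bp without H3K27Me3 were found at Vdr, the vitamin D receptor (11684 bp), Celf3/Riiad1, where Celf3 encodes a splicing regulator (11472 bp), and Trpm5/Tssc4, where Trpm5 encodes a calcium-activated cation channel (11400 bp). At Vdr covered bases were 2212 on RD, 8193 on HFD and 11684 on HFD-O304. At Celf3/Riiad1 they were 9382, 10353 and 10764. The first of these domains was narrow in RD, the other long in every diet. Setd1b (10721 bp), Gnaz (10665 bp) and Syt7 (10659 bp) followed. SYT7 is a calcium sensor for exocytosis, and its domain had 6152 covered bases on RD, 10659 on HFD and 10386 on HFD-O304.

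Of the 20780 protein-coding genes on chromosomes 1 to 19, 770 (3.71%) had a broad domain no more than 1000 bp from the start of one of their protein-coding transcripts, and 661 had one with H3K27Ac alone. Counts over gene lists are read beside this share. The lists were drawn up with earlier results of these data known, so their shares carry no test and a Wilson 95% interval only.

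Among transcription factors of the beta cell 13 of 25 genes had a broad domain (52.0%, 33.5 to 70.0), and 12 of these domains had H3K27Ac alone. The 13 genes included Pdx1, Nkx6-1, Nkx2-2, Neurod1, Isl1, Pax6, Insm1, Foxa2, Glis3, Myt1, Mlxipl and Tshz1. The domain that did not have H3K27Ac alone was that of Nkx6-1. Mafa, Mnx1, Hnf4a, Rfx3, Rfx6 and 5 others had a shorter shared region, Esrrg had none in every diet and Foxa1 had none in any. At Nkx2-2, which represses other endocrine fates, covered bases were 4558 on RD, 6844 on HFD and 7245 on HFD-O304. At Pdx1, an activator of insulin and Slc2a2, they were 3450, 5752 and 5815. Both domains were narrowest in RD. At Nkx6-1 they were 4392, 4369 and 3639, and an H3K27Me3 peak of 282 bp touched that domain in HFD-O304 only. At Isl1 (591, 650 and 3537) and Neurod1 (1055, 2045 and 3204) the length limit was reached mainly through the HFD-O304 list. The Isl1 and Mlxipl domains lay at start sites of other transcripts, 3238 and 17028 bp from the 5′ end of the gene.

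Genes of glucose sensing and secretion had a broad domain in 9 of 19 cases (47.4%, 27.3 to 68.3), 8 of them with H3K27Ac alone. The other was Glp1r, in the run of domains on chromosome 17. Slc2a2, which encodes the glucose transporter GLUT2, had 2372 covered bases on RD, 4624 on HFD and 4282 on HFD-O304. Kcnj11 had 3982, 3568 and 7671. The domain at the 5′ end of Abcc8 had 5001, 5714 and 7734. Slc2a2 was narrowest in RD, whereas Kcnj11 and the domain at the 5′ end of Abcc8 were widest in HFD-O304. The fold enrichment at Slc2a2 went the other way from its width, with 2.70 on RD, 2.43 on HFD and 2.58 on HFD-O304. The longer domains within Abcc8 were widest in HFD, with 6597 covered bases on RD, 9658 on HFD and 6213 on HFD-O304 in one and 4062, 10444 and 8941 in the other. Trpm5 (4562, 7535 and 11330) had the same order as the 5′ domain of Abcc8. The fatty acid receptor gene Ffar1 (2169, 3147 and 3154), the vesicle protein gene Vamp2 (2022, 3405 and 2369) and Gjd2 (3532, 1887 and 3497), which encodes the gap junction protein that couples beta cells, had shorter domains.

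Hormones and granule proteins had fewer broad domains by count. Only Chga and Pcsk2 of 20 genes had a broad domain (10.0%, 2.79 to 30.1), and 9 more had a shorter shared region. Pcsk2, which encodes a prohormone convertase, had 3295 covered bases on RD, 3021 on HFD and 4151 on HFD-O304. Ins2, Chgb, Scg3, Pcsk1 and Cpe were among the shorter ones. The interval of this list overlaps that of glucose sensing and secretion, and its difference from other lists was not tested.

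**Figure D2:**
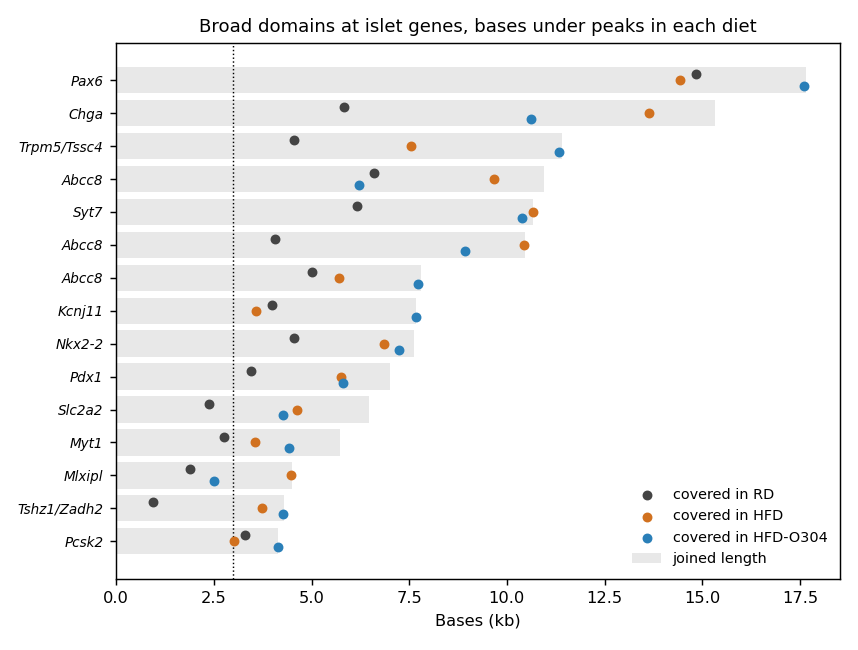
Broad domains with H3K27Ac alone at genes of the beta cell factor, secretion and granule lists (at most 8 per list). Grey bars give the joined length in kb, points the bases under H3K27Ac peaks in each diet, and the dotted line the limit of 3 kb; at Pdx1 the RD point lies at 3450 bases and the others at 5752 and 5815.

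Non-coding genes known from islets lay in domains as well. Mir375, which encodes the most studied islet miRNA, lay in a domain of 7805 bp nearest to Cryba2 (chr1:74895477-74903281) with 3951 covered bases on RD, 6947 on HFD and 6152 on HFD-O304. Mir7-2, a second miRNA gene active in endocrine cells, lay in a domain of 7847 bp (chr7:78881711-78889557) with 5075, 7847 and 7167. Both domains had H3K27Ac alone and were narrowest in RD. In all, 22 of the 928 domains with H3K27Ac alone (2.37%) held an annotated miRNA gene, beside 1.15% of the shorter shared regions with H3K27Ac alone, which offer fewer bases. Mature sequences of these loci and of the epithelial miRNAs Mir141 and Mir200c, which shared a domain of 4201 bp, are shown because these domains held the miRNA genes. The seed (bases 2 to 8) is in capitals (RefSeq, GRCm38.p6).
miR-375-5p (chr1:74900696-74900717, minus strand): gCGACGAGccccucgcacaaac
miR-7a-5p (chr7:78888295-78888317, plus strand): uGGAAGACuagugauuuuguugu
miR-141-3p (chr6:124717917-124717938, minus strand): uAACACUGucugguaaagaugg
miR-200c-3p (chr6:124718324-124718346, minus strand): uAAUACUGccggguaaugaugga
The table used held mature sequences for 18 of the 26 miRNA genes in these domains, and miR-375-3p, the other arm of the Mir375 hairpin, is named only. Among its 29 mature sequences no seed was shared. The long non-coding genes Malat1 and Neat1 are neighbours on chromosome 19. Malat1, an abundant nuclear transcript, lay inside a domain of 10243 bp (chr19:5794328-5804570) with 10220 covered bases on RD, 8380 on HFD and 6041 on HFD-O304. The start of Neat1, the scaffold of paraspeckles, lay in a domain of 7748 bp with 6644, 7256 and 6651. The Malat1 domain was widest in RD, as were 94 (10.1%) of the domains with H3K27Ac alone, beside 17.8% of the shorter shared regions with H3K27Ac alone.

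Genes with a rapid or rhythmic response were the other lists with many broad domains. Immediate early genes had one in 15 of 30 cases (50.0%, 33.2 to 66.8). Junb had 4714 covered bases on RD, 4935 on HFD and 5661 on HFD-O304, Fos had 3702, 3928 and 4875, and both encode subunits of AP-1. Fosb (3132, 3215 and 3108) and Jun (3520, 3456 and 3374) had a covered length over 3000 bp in every diet. Sik1, a kinase gene induced by cAMP, had 2124, 2713 and 5251. At Sik1 the HFD-O304 list alone passed 3000 bases.

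Circadian clock genes had a broad domain in 8 of 19 cases (42.1%, 23.1 to 63.7), all with H3K27Ac alone. They were the negative limb genes Per1, Per2 and Cry2, the repressors Nr1d1, Bhlhe40 and Bhlhe41, and the output genes Dbp and Tef. The activators Clock and Arntl had shorter shared regions. Per1 had 7132 covered bases on RD, 7263 on HFD and 7198 on HFD-O304, and Per2 had 6155, 6637 and 6791. Neither of these differed between diets by as much as 25%. Cry2 was widest in HFD, with 4163 covered bases on RD, 5412 on HFD and 4160 on HFD-O304.

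The unfolded protein response had 6 of 21 genes with a broad domain (28.6%, 13.8 to 50.0). Hspa5, which encodes the chaperone BiP, had 3477 covered bases on RD, 1671 on HFD and 1709 on HFD-O304. Its fold enrichment went the other way, with 3.44 on RD, 3.99 on HFD and 3.63 on HFD-O304. Xbp1, a transcription factor activated by splicing, had 1723, 1781 and 3905. Ero1lb, an oxidase of the endoplasmic reticulum, had 3575, 1624 and 3567. Atf4 (4393, 4161 and 4321) was even. Hspa5 was widest in RD, Xbp1 in HFD-O304, and the remaining 15 genes of the list had shorter shared regions.

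Metabolic and chromatin lists had fewer. Insulin and FoxO signalling had 3 of 16 genes (Igf1r, Irs2 and Foxo3), lipid and cholesterol synthesis 3 of 14 (among them Srebf1 and Fasn), AMPK subunits and kinases 2 of 12 (Prkag2 and Stk11) and enzymes and readers of H3K27 3 of 17 (Kdm6b, Brd2 and Hdac5). At Irs2, which encodes the main insulin receptor substrate of beta cells, covered bases were 7189 on RD, 7595 on HFD and 6718 on HFD-O304. At Stk11, which encodes the AMPK kinase LKB1, they were 3003, 2725 and 2824. At Irs2 and Stk11 the diets lay within 25% of each other. Prkag2 was narrowest in RD, with 1710 covered bases on RD, 3061 on HFD and 2232 on HFD-O304.

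All 18 splicing factor genes had a shared region and none had a broad domain (0%, up to 17.6). Of 18 translation genes 3 had one (Rps14, Eef1a1 and Eef2). Genes disallowed or dedifferentiation-linked in beta cells had none of 13 (up to 22.8%), with shorter shared regions at Slc16a1, Hk1, Rest, Smad3 and Lmo4. None of 23 developmental transcription factors of other tissues and none of 17 macrophage, endothelial or fibroblast genes had one (up to 14.3% and 18.4%). The intervals of these lists without a broad domain include the 3.71% of all protein-coding genes. Among protein-coding genes with a shared region the share was 7.70%. The alpha, delta and progenitor factors had 3 of 14, among them Gata6 and Meis2. The Gata6 domain was partly under H3K27Me3, with 13.2% of its bases on RD, 99.6% on HFD and 38.0% on HFD-O304.

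**Figure D3:**
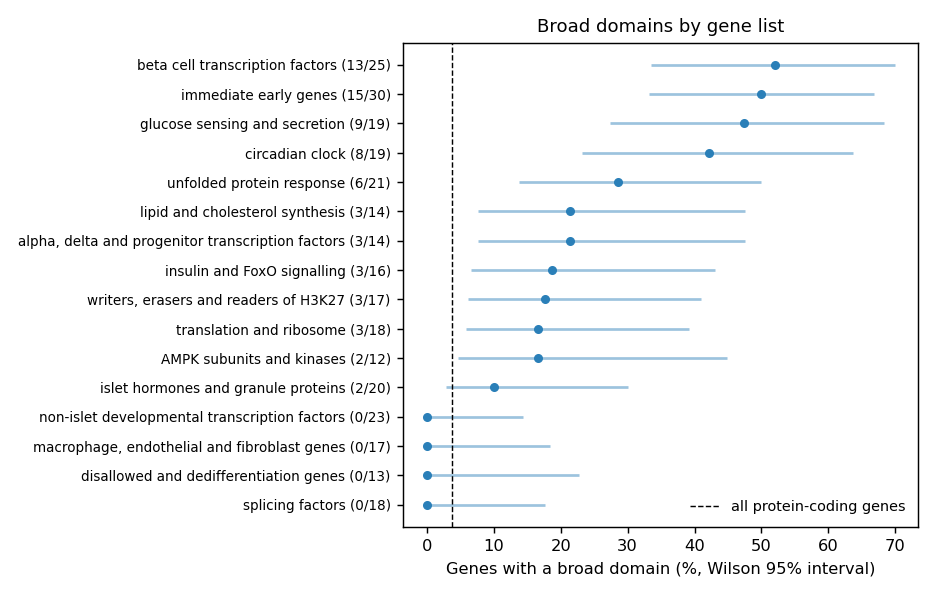
Percentage of the annotated genes of 16 lists with a broad domain within 1000 bp of a start site, with Wilson 95% intervals (counting error only) and the counts in the labels. The dashed line is the share of all protein-coding genes, 3.71%; beta cell factors (13 of 25) stand at the top and splicing factors (0 of 18) at the bottom.

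The domains were mostly extended into the gene. At 361 domains with H3K27Ac alone that held the 5′ end of their only protein-coding gene, the median reach was 1029 bp upstream and 2775 bp downstream. The downstream side was the longer at 288 of them (79.8%, 75.3 to 83.6). In 5036 shorter shared regions the reach was 434 and 863 bp, and the downstream side was the longer in 84.4% (83.4 to 85.4). Of all bases, 69.3% lay downstream in the domains and 66.6% in the shorter regions. The domains reached further than the shorter regions on either side of the start site, which the length limit itself favours.

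**Figure D4:**
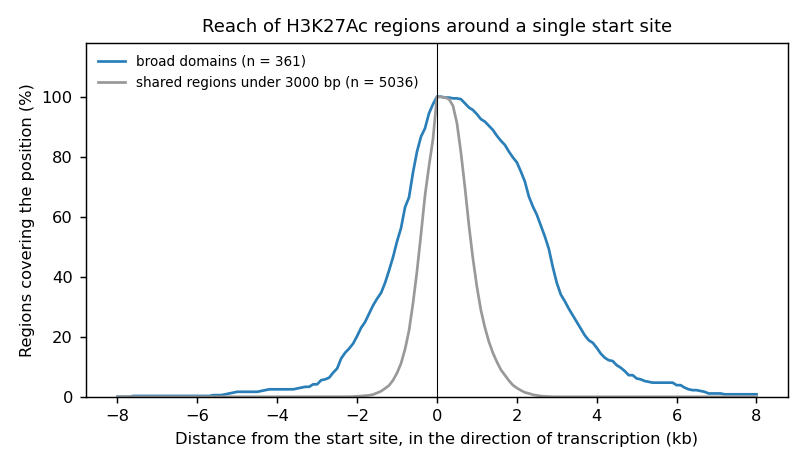
Percentage of regions that cover each position around the 5′ end of the gene, in the direction of transcription (kb), for 361 broad domains and 5036 shorter shared regions, all with H3K27Ac alone and a single gene. The blue curve is wider on both sides, as the length limit favours, with a median reach of 2775 bp downstream against 1029 bp upstream.

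Most promoter domains belonged to 1 gene. Of the 601 promoter domains with H3K27Ac alone 516 had 1 protein-coding gene and 85 (14.1%) had more, beside 14% of 8166 shorter shared regions. Divergent pairs of genes with 5′ ends within 1000 bp were found in 4.49% (3.11 to 6.46) of the domains and 6.50% (5.99 to 7.06) of the shorter regions. The domains with the most such genes had 9, predicted genes on chromosome 9, and 8, among them the interferon gene Ifnz on chromosome 4, and both had both marks. Then followed domains with 4 genes, of which that of Dbp, Sphk2, Car11 and Rpl18 had H3K27Ac alone.

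The sequence of the domains was less rich in CpG than that of shorter regions. Over the 601 promoter domains with H3K27Ac alone the median GC content was 56.4% and the ratio of observed to expected CpG was 0.49. Over 8166 shorter promoter regions with H3K27Ac alone they were 61.0% and 0.72. Longer regions reach further past the start site, so windows of fixed length were compared as well. In the 250 bases before RefSeq start sites, which do not depend on length, a CpG ratio of at least 0.6 was found in 484 of 746 windows in broad domains (64.9%, 61.4 to 68.2) and in 80.5% (79.6 to 81.3) of 8276 windows in shorter regions. In windows outside shared regions the share was 15.4%.

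Motifs in the same windows, searched on both strands, differed in share between the groups. The GC box GGGCGG was in 58.7% (55.1 to 62.2) of the windows in broad domains, 66.9% (65.9 to 67.9) of those in shorter regions and 33.0% of all 31396 windows. The ETS motif CCGGAAG was in 7.51% (5.83 to 9.62), 16.4% (15.7 to 17.2) and 7.01%. The NRF1 core GCGCATGC was in 3.35% (2.28 to 4.90), 5.05% (4.6 to 5.54) and 2.24%. These motifs of constitutively active promoters were thus less frequent in the broad domains than in the shorter regions, with intervals that did not overlap for the GC box and the ETS motif. The intervals take windows as independent, although the 746 and 8276 windows came from 582 and 7146 genes.

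The forkhead motif TGTTTAC had the opposite order, with 5.09% (3.73 to 6.92) in broad domains, 1.63% (1.38 to 1.93) in shorter regions and 3.21% of all windows. The AP-1 motif TGACTCA was in 3.89%, 2.36% and 4.50%, the NEUROD1 E-box CAGATG in 9.12%, 7.71% and 14.5%, and the homeodomain motif TAATTA in 1.21%, 1.33% and 4.81%. The CCAAT box was in 33.5%, 32.7% and 33.7% and the TATA box TATAAA in 5.36%, 4.07% and 12.4%. TGACGTCA was in 3.08%, 3.44% and 1.58% and the MAF element TGCTGAC in 2.95%, 2.80% and 3.79%. A match is a run of letters and not a bound site, and AP-1 and CRE sequences are related but were counted apart.

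At 327 domains with H3K27Ac alone away from promoters the 300 bases around the midpoint held the NEUROD1 E-box in 25.4% (21 to 30.4), beside 24.2% (22.2 to 26.3) of 1639 shorter distal regions. The homeodomain motif was in 6.12% and 4.51%, and the forkhead motif in 4.28% and 4.33%. The GC box was in 8.87% (6.25 to 12.4) and 23.4% (21.4 to 25.5). The midpoint of a long domain need not be its most active part.

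The distal domains with H3K27Ac alone included 9813 bp in the body of Ago2, a component of the RNA-silencing machinery, 9155 bp in Gse1 and 8146 bp nearest to Alkbh3. The domain in Ago2 had 6336 covered bases on RD, 8140 on HFD and 9052 on HFD-O304. Of all 327, 205 lay in a gene body. Their median fold was 2.58 on RD, 2.60 on HFD and 2.65 on HFD-O304, beside 2.92 in RD at the 601 promoter domains, so the distal ones lay closer to the lowest fold that was called.

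The extent of the domains was then compared between diets. A domain had a median of 2615 covered bases on RD, 3459 on HFD and 3325 on HFD-O304, and its joined length was covered to 67.8%, 87.3% and 82.8% in sum. RD was the narrowest at 827 domains (65.5%) and the widest at 152 (12%), beside 54.6% and 18.2% of all shared regions. HFD was the widest at 634 (50.2%) and HFD-O304 at 477 (37.8%), beside 44.0% and 37.4% of all shared regions. The order of the diets was thus the same over all shared regions, and the HFD and HFD-O304 lists were longer than that of RD. The depth of the lists and the lowest fold that was called moved with this order between HFD and RD. Between HFD-O304 and RD the depths differed little. The part of depth in these widths was not tested, and diet and list cannot be told apart.

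In HFD over RD the ratio of covered bases had a median of 1.33, and 701 domains (55.5%) had at least 25% more covered bases on HFD and 81 (6.41%) at least 20% fewer. Over all 12950 shared regions the shares were 38.9% and 10.2%. In HFD-O304 over RD the median was 1.23, with 616 domains (48.8%) and 132 (10.5%) past the same limits, beside 36% and 12.9% of all shared regions. In HFD-O304 over HFD the median was 0.97, with 247 domains (19.6%) and 373 (29.5%) past these limits, beside 18.2% and 22.7%. Each pair of these ratios shares a list. Because the length rule takes in regions that are long in any diet, nothing is read from these shares about the domains.

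Medians by kind of domain are given as a description, under the same limit. The median of HFD over RD was 1.39 with H3K27Ac alone and 1.11 with both marks, and that of HFD-O304 over RD was 1.32 and 1.03. With H3K27Ac alone it was 1.32 at promoters and 1.46 away from them in HFD over RD. A peak of at least 3000 bp in every diet was found at 18.8% of domains with H3K27Ac alone and 52.4% with both marks. The contrast between kinds is therefore not read as a response to diet. At the 312 domains with a peak of at least 3000 bp in every diet the medians were 1.06, 1.04 and 0.99. Ratios were thus nearer to 1 where a domain was long in every list, a choice that itself favours even domains.

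**Figure D5:**
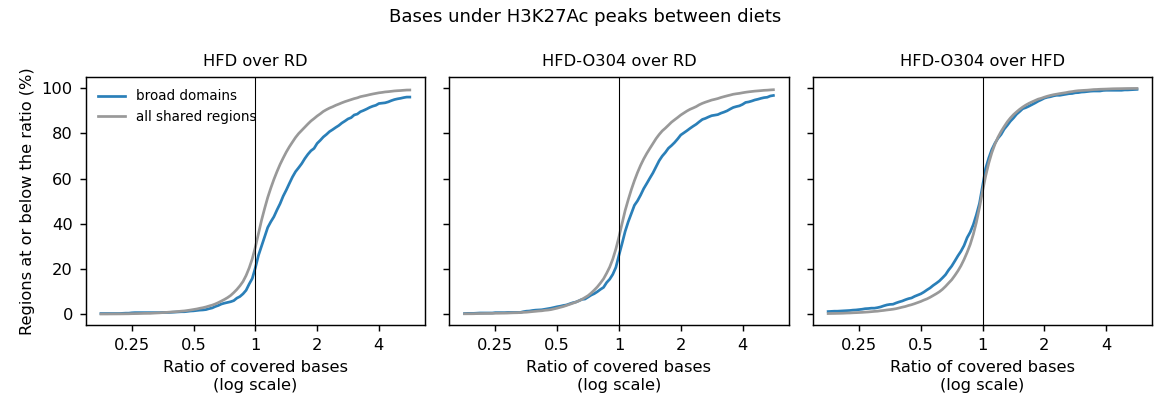
Percentage of regions at or below each ratio of covered bases (log scale), for 1263 broad domains and 12950 shared regions, in HFD over RD, HFD-O304 over RD and HFD-O304 over HFD. The blue curves lie to the right of the grey ones in the first and second panels, with medians of 1.33 and 1.23, and near them in the third, with 0.97.

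The domains with the largest ratios were short peaks in one diet that widened in another. A domain within Gldc, the glycine decarboxylase gene (chr19:30114191-30119290), had 315 covered bases on RD, 5100 on HFD and 738 on HFD-O304. At Bcar1, an adaptor of integrin signalling, the values were 352, 6176 and 4984. At Dpp9, a dipeptidyl peptidase gene, they were 395, 4169 and 6169, and at Cyhr1/Kifc2 333, 3496 and 6318. In these cases the RD list had only a short peak within a longer joined region. In the other direction, a domain in Pam, which encodes the enzyme that amidates peptide hormones, had 2962 on RD, 277 on HFD and 1582 on HFD-O304, and one near Defb1 had 3111, 351 and 2311.

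HFD-O304 was narrower at a domain in Dlg5, a scaffold protein gene (2650 on RD, 2354 on HFD and 353 on HFD-O304), at Tap2, a peptide transporter gene of antigen presentation (2449, 2630 and 601), and near Gadd45g (617, 3219 and 275). It was wider in Bcl11a, a repressor gene, with 986, 406 and 3427, and in Glo1, a glyoxalase gene in the run on chromosome 17, with 1665, 406 and 2825. The smallest ratios of HFD-O304 over HFD were near G530012D18Rik, with 2015 covered bases on RD and 3601 on HFD, and near Cyp3a41b (1603, 3950 and 335), and both of these domains had H3K27Me3.

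The mean height of the called bases hardly differed. The length-weighted pileup, divided by the number of kept fragments, had a median ratio of 1.01 in HFD over RD, 1.03 in HFD-O304 over RD and 1.02 in HFD-O304 over HFD. It was at least 25% higher at 10, 11 and 6 domains (0.79%, 0.87% and 0.48%), beside 5.1%, 6.22% and 2.15% of all shared regions. It was at least 20% lower at 5, 4 and 2 domains, beside 1.51%, 1.04% and 1.19%. In the middle 90% of the domains it lay between 0.89 and 1.16 in HFD over RD, between 0.90 and 1.16 in HFD-O304 over RD and between 0.91 and 1.14 in HFD-O304 over HFD. The pileup is a mean over called bases only and does not count bases outside peaks. A base is called only above a limit in each list, so nothing is read from these ratios and shares about the height of whole domains.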

How the data were processed

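Chromatin of pooled CBA islets was immunoprecipitated for H3K27Ac and H3K27Me3 under 3 diets (12 samples, 2 replicates for each mark and diet, and 3 inputs, not used here). The authors mapped reads to GRCm38, merged the replicates and called broad peaks, and the submitters' processing notes name FastQC, STAR, Bowtie2 and MACS2. Per the file headers MACS 2.1.2 was run with a q-value cutoff of 0.01, no control file and no local lambda. The deposited values were the peak length, the signal as a pileup of fragments per base (not scaled for depth), −log10 q-values (−log10 p-values were not used), and the fold enrichment, a ratio over a uniform background. H3K27Me3 lists rested on 54166902 to 74870300 kept fragments.

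H3K27Ac peaks of chromosomes 1 to 19 were joined where they overlapped by at least 1 bp. Covered bases are the bases of a domain under peaks of a diet, and pileups were weighted by peak length and divided by the number of kept fragments. Start sites came from protein-coding transcripts of GENCODE M21, repeats, GC content and sequences from RefSeq GRCm38.p6. A domain is named by genes with a start site within 1000 bp, otherwise by the nearest 5′ end of a gene, and lies in a gene body or between genes by its midpoint. With 1 list for a diet no test could be run, and limits of 25% more and 20% less served for description. Wilson 95% intervals were computed with SciPy 1.17.1 in Python 3.11.15 (pandas 2.3.3, numpy 2.4.6, matplotlib 3.10.9). The joining step was tested on simulated peaks.

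The domains, gene lists and alternatives were chosen with earlier results of these data known. Domains were named when they were among the 12 longest, the 4 highest or lowest in pileup, the 2 most extreme in each direction of each ratio, the 3 on either side of the length limit, the 5 most covered by H3K27Me3, the 3 with the most start sites, or at a gene of a list (up to 8 a list by length). The longest domains with H3K27Ac alone, their most extreme ratios, the groups of domains, the non-coding genes and some further members of the lists were added after their values were seen. Promoter sequences were to be 300 bases centred on the start site, but up to 250 bases before it are shown, stopping at the first exon annotated in GENCODE or RefSeq, so that no exon is included. Peaks of other chromosomes were left out, and some genes and 1 gene list are not reported here.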

Additional observations from a re-analysis of the deposited data

How the results depend on the processing

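In 16 planned settings and 3 chosen after seeing the data, 12 results gave 135 values, of which 82 stayed within the limits set for each (1.5 times for counts, the interval for shares and medians). No paired analysis was possible because each list was called on both replicates together, which also prevented leaving either one out. The other 53 values were as follows. Keeping peaks with a −log10 q of 5 or more gave 618 domains, 69.3% at promoters, 8 beta cell factors, a GC content of 55% and covered-base ratios of 1.18 (HFD over RD) and 1.12 (HFD-O304 over RD). With a length of at least 2000 bp there were 3121 domains, 65.8% at promoters, 17.4% with H3K27Me3, 20 beta cell factors, a GC content of 55.2%, ratios of 1.23 and 1.18 and pileup ratios of 1.02 (HFD over RD) and 1.04 (HFD-O304 over RD). With at least 4000 bp there were 612 domains, 50.8% at promoters, 35.6% with H3K27Me3, 8 factors, a GC content of 52.0% and pileup ratios of 0.998 and 1.02, so that the small pileup difference of HFD over RD lay on the other side of 1. With at least 3000 covered bases in every diet there were 372 domains, 51.6% at promoters, 44.9% with H3K27Me3, 6 factors, a GC content of 52.0% and ratios of 1.07, 1.05 and 0.988 (HFD-O304 over HFD). The excess of covered bases over RD was thus much smaller in domains long in every diet, which that setting selects. With equal numbers of peaks in each diet 57.8% were at promoters and the pileup ratio of HFD over RD was 1.01. With start sites of all annotated genes 64.8% were at promoters. With stricter H3K27Me3 peaks 20.7% of the domains had H3K27Me3, and without H3K27Me3 peaks that were mostly repeats 20.1%. By fold enrichment the ratios of height were 1.02 (HFD over RD) and 1.01 (HFD-O304 over HFD). In 300 bases at the midpoint the GC content was 51.7%. The added settings left out domains. Without those at least 50% under H3K27Me3 in every diet, 201 had a peak of at least 3000 bp in every diet, 61.8% were at promoters, 11.7% had H3K27Me3, the GC content was 53.9% and the ratios were 1.39 and 1.31. With H3K27Ac alone the values were 174, 64.8%, 0% by definition, 54.4% and 1.39, 1.32 and 0.990. Without domains of at least 50% repeats 58.5% were at promoters and 20.9% had H3K27Me3.

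The cause of these shifts was not tested beyond what each setting changes. Differences between diets rest on 1 list each and have no replicate error. The HFD list of H3K27Ac was the deepest, whereas those of HFD-O304 and RD were of nearly equal depth and had a covered-base ratio of 1.23, and the part of depth was not tested. The start and end of a domain follow the widest diet. Widths near the lowest called fold, as at distal domains, are the least certain.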
